A study of Drosophila melanogaster with 12 samples.

Results

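Mitochondrial ribosomal protein genes encode the protein parts of the ribosome that works inside mitochondria. They were taken here as the genes whose symbol in the array annotation begins with mRpL, for the large subunit, or mRpS, for the small subunit. Only probe sets that name 1 gene were used, and where several named the same gene, the probe set with the highest average signal over the 12 arrays stood for it. This gave 69 genes of 11982 named on the array, 44 of the large and 25 of the small subunit. A RefSeq gene table lists 73 genes with such symbols, of which mRpS10 and mRpL53 share their probe sets with other genes and were left out, and mRpL34 and mRpL37 were not analysed here. All 69 matched the table by gene identifier with no difference in symbol. Expression was measured on Affymetrix 3' arrays in adult females of w1118, a white-eyed laboratory strain of Drosophila melanogaster. After eclosion the flies spent 10 days at 25 °C on a holidic diet, a food made wholly of defined chemicals, which was either left unmodified or enriched with glucose (100 g/L). Total RNA came from 5 whole flies or from 10 dissected midguts, the digestive and absorptive stretch of the gut, and there were 3 arrays for each of the 4 combinations of tissue and diet. A whole fly includes its midgut, so the tissue comparison sets an organ against an animal that contains it.

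The mitochondrial ribosome is built from ribosomal RNAs encoded in the mitochondrial genome and from proteins encoded in the nucleus, made in the cytosol and imported. It translates the few messages of the mitochondrial genome, which in animals specify membrane subunits of the respiratory chain and of ATP synthase. Many of its proteins have counterparts in the bacterial ribosome and others are found only in mitochondria. In Drosophila, loss of some of these genes impairs growth, and the small-subunit gene tko is a classical case in which a mutation gives bang-sensitivity and delayed development.

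Every value below is a log2 probe set signal as deposited, or a difference between such signals. A signal depends on the probes as well as on the transcript, so levels of different genes were not compared. Array medians over all 18769 tested probe sets were 4.04 to 4.15 in whole flies and 3.43 to 3.47 in midguts, and the sources used here do not state whether both tissues were scaled together. The dimmest mitochondrial ribosomal protein gene on an array lay above 69.2% to 74.3% of its probe sets, so none of these genes was among the dimmer probe sets. All 8 measured markers of midgut enterocytes, the absorptive cells, were called higher in midgut on both diets. The labels do not state whether replicates were reared apart, so the p-values refer to the spread between these samples, which may be technical. An exact two-sided permutation test of 3 arrays against 3 cannot go below 0.1, and the p-values given are from limma, a linear model that shares its estimate of spread across all probe sets.

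The level of the family was followed by its median on each array. In whole flies the median over the 69 genes was 8.04, 8.20 and 7.90 on the unmodified diet and 7.97, 8.15 and 8.18 on glucose. In midguts it was 7.44, 7.38 and 7.15 on the unmodified diet and 7.75, 7.63 and 7.32 on glucose. All 6 midgut medians therefore lay below all 6 whole fly medians on the deposited scale, while the array median over all probe sets was lower in midgut as well. Within midguts the diet groups overlapped, since the lowest glucose array lay below the first 2 unmodified arrays.

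**Figure D1:**
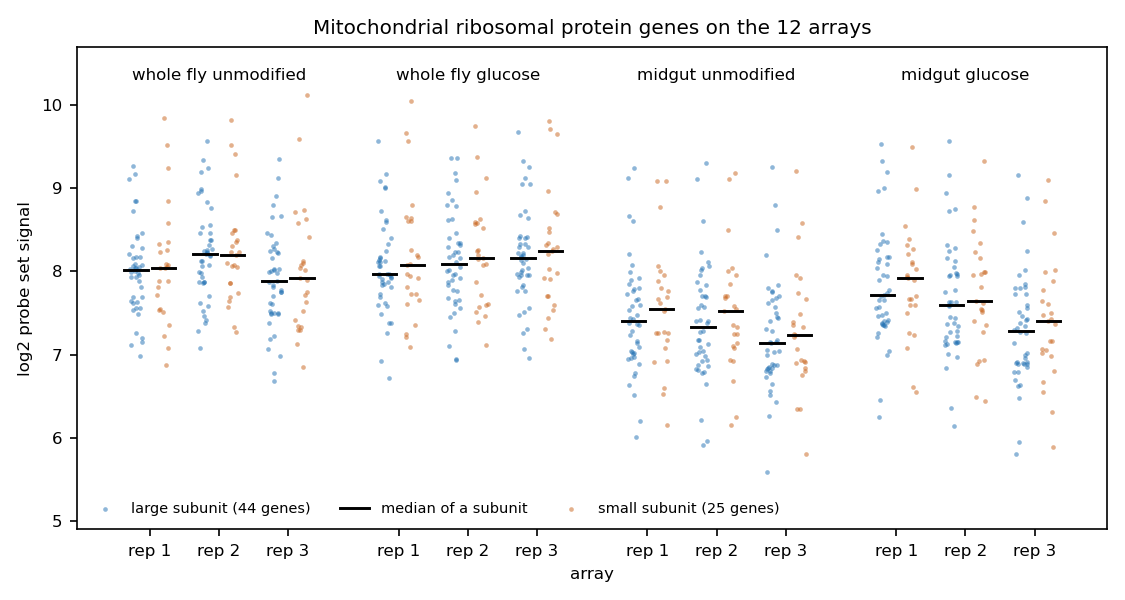
Log2 probe set signal (y axis) of each mitochondrial ribosomal protein gene on each of the 12 arrays (x axis), with 44 large-subunit and 25 small-subunit genes side by side and a bar at each median. Within each subunit every midgut median lies below every whole fly median on the deposited scale, where array medians over all probe sets are also lower in midgut.

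Both subunits had the same level pattern. The mean of the 3 array medians for the large subunit was 8.03 ± 0.16 (SD, n = 3) in whole flies and 7.29 ± 0.13 in midguts on the unmodified diet, and 8.07 ± 0.10 and 7.53 ± 0.22 on glucose. For the small subunit the corresponding means were 8.05 ± 0.14, 7.44 ± 0.17, 8.16 ± 0.09 and 7.66 ± 0.26. By mean signal over the 12 arrays, the upper end of the large subunit held mRpL28 at 9.31, mRpL33 at 9.09 and mRpL47 at 8.93, and the lower end mRpL40 at 7.0, mRpL3 at 6.62 and mRpL11 at 6.47. The upper end of the small subunit held mRpS5 at 9.33, mRpS21 at 9.20 and mRpS7 at 9.17, and the lower end mRpS6 at 7.07, mRpS23 at 6.91 and mRpS28 at 6.63. These ends describe probe signals and say nothing of how many transcripts each gene made.

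The first comparison asked how the glucose-enriched diet moved these genes in the midgut. The shift was small and nearly uniform, with no single gene past the test. Of 69 genes 66 had a higher mean on glucose, against 50.2% of all probe sets, and the median difference was 0.24 for the family and 0.001 over all probe sets. The count was 67 after median centring and 65 after quantile normalization. The large subunit had a median of 0.24, from -0.03 to 0.57, and the small subunit a median of 0.27, from -0.46 to 0.52. By limma with Benjamini-Hochberg adjustment over all probe sets 0 of 69 genes were called at an adjusted p under 0.05, where 0.00533% of all probe sets were called. At an unadjusted p under 0.05 there were 5 higher genes and 1 lower gene, against 3.47% and 2.73% of all probe sets.

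Individual genes show the size of that shift against the spread. mRpL18, the counterpart of a bacterial protein that binds 5S ribosomal RNA, stood at 7.03, 6.86 and 7.0 on the unmodified diet and at 7.36, 7.15 and 7.25 on glucose, a difference of 0.29 (SE 0.10, adjusted p 0.780). Its groups did not overlap. mRpL38, a protein of the mitochondrial ribosome with no bacterial counterpart, stood at 6.51, 6.22 and 6.57 on the unmodified diet and at 7.0, 6.84 and 6.62 on glucose, a difference of 0.39 (SE 0.14, adjusted p 0.780), again without overlap. With mRpL30, at 0.29 (SE 0.12), these were the 3 genes whose glucose arrays all exceeded the unmodified ones, against 6.36% of all probe sets. mRpS14, a protein of the head of the small subunit, had a larger difference of 0.52 (SE 0.20, adjusted p 0.787), but its arrays overlapped, at 7.67, 7.70 and 7.33 against 8.27, 8.34 and 7.65.

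mRpS5, the counterpart of a bacterial protein beside the entry of the messenger RNA channel, ran the other way. It stood at 9.09, 9.11 and 9.21 on the unmodified diet and at 8.31, 8.62 and 9.10 on glucose, a difference of -0.46 (SE 0.19, adjusted p 0.788) that did not pass the test. Glucose replicate 3 lay among the unmodified arrays and the other two lay below them. In whole flies mRpS5 ranged from 9.38 to 10.1 over both diets, with arrays of the diets interleaved.

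Same-numbered midgut samples deviated together over all probe sets, so their differences can be read pair by pair. The median difference of the family was 0.39, 0.26 and 0.08 in pairs 1, 2 and 3, and 66, 66 and 52 of the 69 genes were higher on glucose. In all 3 pairs 49 genes were higher, against 17.8% of all probe sets, and mRpS5 was the 1 gene lower in all 3, by -0.77, -0.49 and -0.11. With the pair as a block 0 genes were called, and mRpS14 had a blocked adjusted p of 0.193. The order of the pairs was the same for both subunits.

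Other features of the midgut arrays moved with diet or with pair. Glucose replicate 1 carried some oogenesis transcripts, among them osk, which encodes the germ plasm organiser Oskar and was chosen after its values were seen. It stood at 9.55 against 4.97 and 3.42 in the other glucose samples and 5.64, 1.80 and 2.70 on the unmodified diet. Unmodified replicate 1 also had raised levels of some germline transcripts, again picked after their values were seen. Over unmodified replicates 1, 2 and 3, Marf1 read 4.35, 2.21 and 2.42, and bcd 3.64, 1.97 and 1.95. Both arrays belong to pair 1, whose family median difference of 0.39 was the largest. The list of 18 measured ovary and egg genes was mixed. Of these, 8 were highest and 3 lowest of the 6 midgut arrays in glucose replicate 1. In unmodified replicate 1 these counts were 3 and 2, while 6 genes were highest in unmodified replicate 3. The yolk protein gene Yp1 stood at 12.1 in glucose replicate 1, against 12.3 to 12.6 in the other midgut samples. In whole flies Yp1 stood at 13.1 to 13.3, so its level separated the tissues little. Over the 18 genes the mean level was 4.59 to 5.93 in glucose midguts and 4.59 to 5.23 in unmodified ones, against 9.31 to 10.4 in whole flies. Without glucose replicate 1 the median difference was 0.13 in the large and 0.13 in the small subunit, and without glucose replicate 3 it was 0.41 and 0.40. The 3' to 5' signal difference of the array's gapdh control, a sign of RNA integrity and labelling, was 1.83, 1.59 and 1.43 on glucose and 1.37, 1.55 and 1.20 on the unmodified diet, and that of its actin control was higher on glucose by 0.72, 0.10 and 0.66 in the 3 pairs. The eif4a control differed by 0.46, -0.01 and 0.47, and an act5C control by 0.66, -0.14 and 0.11. The part of these features in the shift of the family was not tested.

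**Figure D2:**
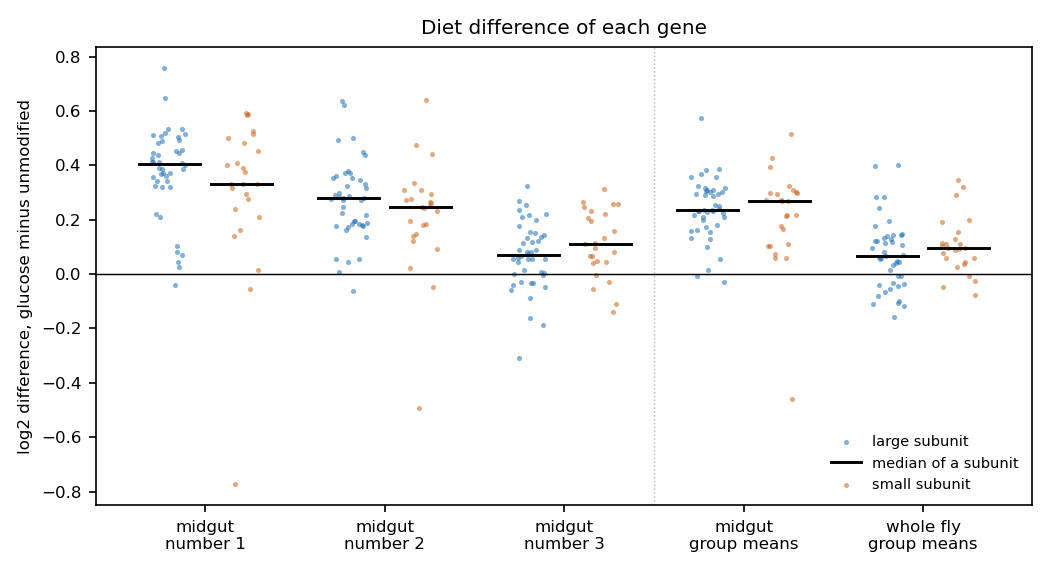
Log2 difference between glucose and unmodified diet (y axis) for each gene, within the 3 same-numbered midgut pairs and between group means of midgut and whole fly (x axis), with bars at subunit medians. Most points lie above 0 in midgut, with family medians of 0.39, 0.26 and 0.08 in the pairs, and mRpS5 is the lowest point in pairs 1 and 2 and between the midgut group means.

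The diet question was next put to whole flies. Of 69 genes 51 had a higher mean on glucose, against 49.7% of all probe sets, with a median of 0.08, 0.07 for the large and 0.10 for the small subunit, and without unmodified replicate 3 the large-subunit median was -0.02. The scaling moved these values, with 44 genes above 0 after median centring, at medians of 0.02 and 0.05 for the subunits, and 58 after quantile normalization, at 0.14 and 0.19. After quantile normalization the midgut medians were 0.18 and 0.20. Limma called 0 genes, where 3.11% of all probe sets were called, and at an unadjusted p under 0.05 there were 4 higher genes and 0 lower ones, against 9.41% and 12% of all probe sets. The arrays did not overlap for 7 higher genes (mRpL28, mRpL33, mRpL43, mRpS9, mRpS16, mRpS22 and mRpS34) and 1 lower gene (mRpL38), against 11.6% and 13.7%.

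The smallest p in whole flies belonged to mRpS9, the counterpart of a bacterial small-subunit protein whose tail reaches the transfer RNA bound in the ribosome. It stood at 8.33, 8.31 and 8.41 on the unmodified diet and at 8.61, 8.63 and 8.69 on glucose, a difference of 0.29 (SE 0.09, adjusted p 0.119). mRpS16 stood at 8.25, 8.50 and 8.10 against 8.61, 8.57 and 8.71, a difference of 0.35 (SE 0.12, adjusted p 0.157). mRpL33 stood at 8.47, 8.94 and 8.91 against 9.02, 9.36 and 9.13, a difference of 0.40 (SE 0.16, adjusted p 0.196). The groups did not overlap for these genes, though the lowest glucose array of mRpS16 and of mRpL33 lay close to the highest unmodified one. mRpL41 and mRpL28 followed at 0.40 (SE 0.17) and 0.25 (SE 0.11). Whole flies on glucose also had a lower mean level of the ovary list, 9.31 to 9.62 against 10.0 to 10.4 over 18 genes, and a higher mean level of 10 muscle genes, 9.39 to 9.88 against 8.87 to 9.33. Of 18 ovary genes 4 were called lower, and of 10 muscle genes 1 was called higher. All 5 measured photoreceptor genes were called higher, at a mean level of 8.86 to 9.55 against 7.89 to 8.20. Fewer cells of a type and less RNA per cell cannot be told apart in such samples, and the part of the tissue makeup in these differences was not tested. The 3' to 5' signal difference of the gapdh control in whole flies was 1.74, 2.05 and 1.31 on the unmodified diet. On glucose it was 1.59, 2 and 1.76, and its part was not tested either.

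Whether diet acted differently in the tissues was tested with an interaction term over all 12 arrays. Limma called 0 of 69 genes, where 0.0426% of all probe sets were called, and the difference between midgut and whole fly effects was above 0 for 59 genes, against 49.1%. The median was 0.16 for the family, 0.17 for the large and 0.12 for the small subunit. This tilt depended on the scaling, since 60 of the 69 genes were above 0 after median centring but 37 after quantile normalization. mRpL38 had the smallest p, with a difference of 0.49 (SE 0.17, adjusted p 0.210), followed by mRpL11 at 0.48, mRpL15 and mRpS29 at 0.35 and mRpL1 at 0.34. The diet differences in midgut and in whole flies had r = 0.11 and rho = 0.01 across the 69 genes. Their SD over the genes was 0.14 and 0.12, no larger than the median SEs of 0.16 and 0.13. A correlation near 0 therefore cannot show whether the same genes moved in both tissues. The tissues share probe sets but no arrays, and the genes are not independent replicates.

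The third comparison was between the tissues on the unmodified diet. On the deposited scale 54 genes were called lower in midgut and 0 higher, but median centring of the arrays gave 20 lower and 10 higher, and quantile normalization 12 lower and 14 higher. Of all probe sets 40.6% were called lower and 14.9% higher as deposited, 26.4% and 59.1% after median centring, and 26% and 30.8% after quantile normalization. The family's median of -0.65 was close to that of the brighter 60% of probe sets, which was -0.69 with quartiles of -1.68 and 0.15, while over all probe sets the median was -0.14. The brighter 60% also holds probe sets dimmer than every gene of the family, so it is not matched to the family in signal. Median centring alone moved the median of all probe sets by 0.61. The family as a whole thus has no direction that holds under all 3 scalings. The 3' to 5' signal difference of the act5C control also differed between the tissues. It was 4.33, 4.93 and 3.78 in whole flies and 2.78, 3.02 and 2.46 in midguts. That of a second gapdh control overlapped, at 5.05, 5.42 and 4.91 against 5.13, 5.24 and 5.03. The part of RNA integrity in the tissue difference was not tested.

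The size of the difference varied from gene to gene, though less than over other probe sets. The family's quartiles were -1.04 and -0.41, against -1.04 and 0.14 over all probe sets and -1.68 and 0.15 over the brighter 60%. The standard deviation of the tissue difference over the 69 genes was 0.40, against a median SE of 0.15 for a single gene, whereas for diet it was 0.14 in midgut and 0.12 in whole fly against median SEs of 0.16 and 0.13. The large subunit ran from -1.42 to 0.30 around a median of -0.72, with 33 of 44 genes called lower as deposited. The small subunit ran from -1.55 to -0.21 around a median of -0.60, with 21 of 25 called lower. The arrays of the tissues did not overlap for 56 lower genes, against 44.1% of all probe sets.

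**Figure D3:**
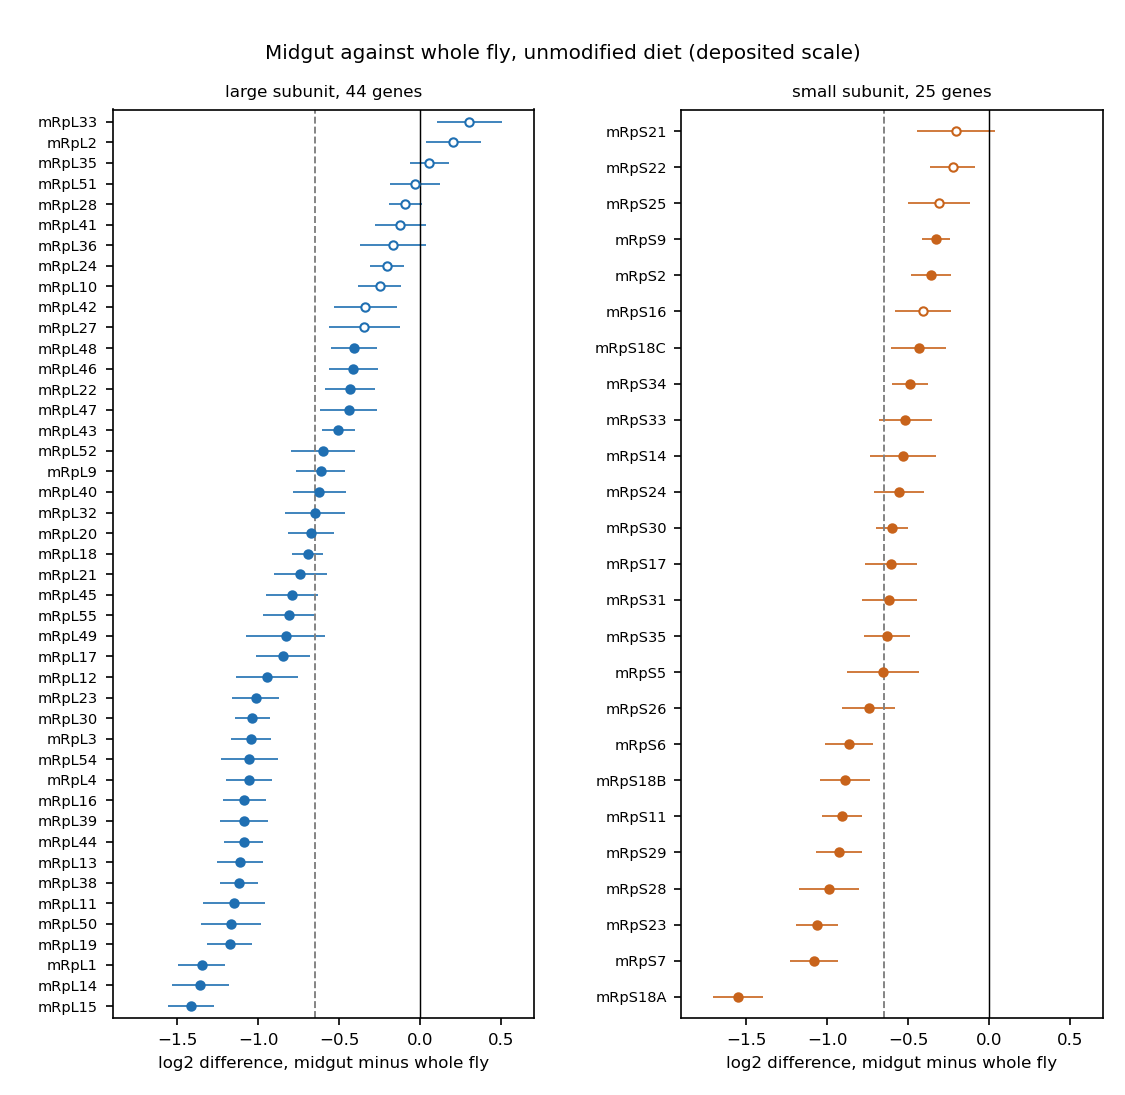
Log2 difference between the tissues, midgut minus whole fly, on the unmodified diet (x axis, deposited scale) for each gene (rows), with bars of 1 SE, filled points called at an adjusted p under 0.05 and a dashed line at the family median of -0.65. The genes spread from mRpS18A at -1.55 to mRpL33 at 0.30, and the position of 0 depends on the scaling, since 54 genes are called lower as deposited and 12 after quantile normalization.

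The lowest end was held by mRpS18A, one of the paralogues related to a bacterial small-subunit protein, whose mammalian counterpart has been found in the large subunit of the mitochondrial ribosome. It stood at 8.85, 9.17 and 8.73 in whole flies and at 7.54, 7.33 and 7.23 in midguts, a difference of -1.55 (SE 0.15, adjusted p 1.46e-06). mRpL15 stood at 8.05, 8.46 and 8.28 against 6.96, 6.78 and 6.80, a difference of -1.42 (SE 0.14, adjusted p 1.69e-06). For both genes every midgut array lay more than 1 log2 unit below every whole fly array, and both remained called lower after median centring and after quantile normalization.

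Other large-subunit genes filled that end. mRpL14, whose bacterial counterpart lies at the face that meets the small subunit, stood at 8.21, 8.56 and 8.22 against 7.16, 7.03 and 6.73, a difference of -1.36 (SE 0.18). mRpL1, the counterpart of the protein of the mobile stalk through which spent transfer RNAs leave, stood at 8.05, 8.38 and 8.23 against 6.95, 6.83 and 6.83, a difference of -1.35 (SE 0.14). mRpL19 followed at -1.18 (SE 0.14), mRpL13 at -1.11 (SE 0.14) and mRpL44, a protein with a ribonuclease III fold, at -1.09 (SE 0.12). These were called lower under all 3 scalings. mRpL50 at -1.17 (SE 0.19), mRpL11 at -1.15 (SE 0.19), a protein of the base of the factor-binding stalk, and mRpL38 at -1.12 (SE 0.12) were called lower as deposited but not after quantile normalization. In all, 11 genes were called lower under every scaling: mRpL1, mRpL13, mRpL14, mRpL15, mRpL19, mRpL23, mRpL30, mRpL44, mRpS7, mRpS11 and mRpS18A. The share of all probe sets called lower under every scaling was not counted, so the 11 genes have no background beside them. No gene was called higher under every scaling, and 5 changed from lower to higher under at least 1 (mRpL40, mRpL43, mRpL48, mRpS2 and mRpS9).

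At the other end stood 15 genes that were not called as deposited. mRpL33, the counterpart of a small bacterial large-subunit protein, stood at 8.47, 8.94 and 8.91 in whole flies and at 9.12, 9.30 and 8.80 in midguts, a difference of 0.30 (SE 0.20, adjusted p 0.232). mRpL2, related to a protein close to the peptidyl transferase centre, stood at 7.20, 7.07 and 6.77 against 7.24, 7.28 and 7.15, a difference of 0.20 (SE 0.17). mRpL35 stood at 7.88, 7.94 and 7.88 against 8.08, 8.02 and 7.76, a difference of 0.06 (SE 0.12). The tissues overlapped for all 3 of these genes. The rest were mRpL10, mRpL24, mRpL27, mRpL28, mRpL36, mRpL41, mRpL42, mRpL51, mRpS16, mRpS21, mRpS22 and mRpS25, at -0.41 to -0.03.

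The same comparison on the glucose diet used other arrays. As deposited, 46 genes were called lower and 0 higher, but median centring gave 3 lower and 18 higher and quantile normalization 7 lower and 12 higher. The share of all probe sets called lower as deposited was 41.2% and higher 11.8%, against 22.8% and 60.3% after median centring and 24% and 28.9% after quantile normalization. The median difference was -0.52 for both the family and the large subunit and -0.57 for the small subunit. It was -0.17 over all probe sets and -0.635 over the brighter 60%, with quartiles of -1.45 and 0.05. As deposited, 30 large-subunit and 16 small-subunit genes were called lower. The 47 genes whose lower midgut arrays did not overlap the whole fly arrays compare with 44.9% of all probe sets.

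The order of the genes recurred. mRpS18A again had the largest difference as deposited, -1.27 (SE 0.15), followed by mRpL15 at -1.06 (SE 0.14), mRpS5 at -1.04 (SE 0.22), mRpL13 at -1.03 (SE 0.14), mRpL1 at -1.01 (SE 0.14) and mRpL14 at -1.01 (SE 0.18). mRpS23 at -0.98, mRpS7 at -0.97, mRpL19 at -0.93 and mRpL4 at -0.92 completed the 10 largest. Only mRpL13, mRpL15 and mRpS18A were called lower under all 3 scalings on this diet. As deposited, 44 genes were called lower on both diets, 10 on the unmodified diet alone, 2 on glucose alone and 13 on neither. The shares of all probe sets for these overlaps of scalings and of diets were not counted. The 2 tissue differences had r = 0.90 and rho = 0.90 across the 69 genes. The diets share no arrays in this comparison, but they share probe sets, and the genes are not independent replicates.

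A direction that does not turn when whole arrays are shifted is that of a gene against its own family. Each array was therefore centred on the median of the 69 genes, a step chosen after the data had been seen. On the unmodified diet 15 of the 69 genes were then called higher and 15 lower than the family in midgut, against 58.6% and 23.1% of all probe sets. Centring on the family's own median puts genes on both sides of it by construction, so the even split is not a result. In both directions the family's share was below that of all probe sets. The higher genes were 10 of the large and 5 of the small subunit, and the lower ones 12 and 3. mRpL33 exceeded the family by 1.02 (SE 0.18, adjusted p 1.17e-04), mRpL2 by 0.93 (SE 0.17), mRpL35 by 0.78 (SE 0.15) and mRpL51, which is specific to mitochondria, by 0.69 (SE 0.14). mRpS18A lay below it at -0.83 (SE 0.14, adjusted p 9.32e-05), mRpL15 at -0.69 (SE 0.15), mRpL14 at -0.64 (SE 0.14) and mRpL1 at -0.63 (SE 0.16).

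On the glucose diet 8 of the 69 genes were called higher and 13 lower than the family, against 43.7% and 23.8% of all probe sets. Both shares were again below those of all probe sets. Of the higher genes 6 were shared between the diets, out of 15 and 8, and of the lower genes 10, out of 15 and 13, while 0 were called in opposite directions. mRpL33 stood at 0.69, mRpL2 at 0.66, mRpL51 at 0.60 and mRpL35 at 0.47 above the family, and mRpS18A at -0.74, mRpL15 at -0.53, mRpL1 at -0.48 and mRpL14 at -0.48. mRpS5 had the largest change between the diets, from 0.07 on the unmodified diet to -0.51 on glucose, with a wide error. Neither value was called, nor was their difference of -0.57 (SE 0.43). For diet itself 0 genes were called against the family in either tissue, where 0.0373% of all probe sets were called higher and 0.224% lower in midgut and 0.597% and 2.99% in whole flies. After quantile normalization before the centring, 18 of these 30 calls were kept on the unmodified diet and 15 of 21 on glucose. The counts of genes called against the family rested on the arrays used. They fell from 30 to 15 without midgut unmodified replicate 2 and to 18 without whole fly unmodified replicate 3, and from 21 to 10 without either midgut glucose replicate 2 or whole fly glucose replicate 2 and to 14 without whole fly glucose replicate 3.

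**Figure D4:**
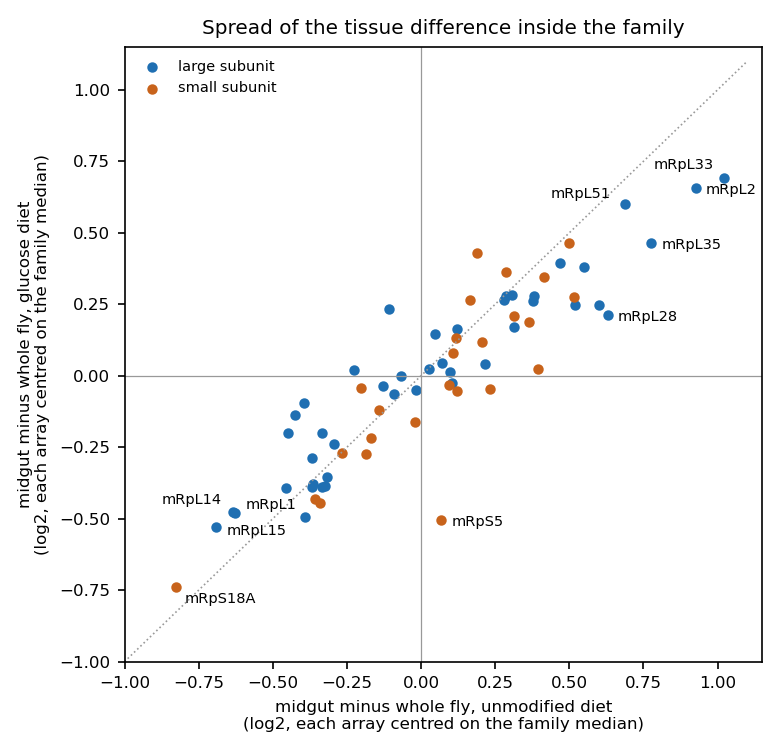
Log2 difference between midgut and whole fly after each array was centred on the median of the 69 genes, on the unmodified diet (x axis) and on glucose (y axis), with 1 point per gene and a dotted line of equality. mRpL33 and mRpL2 stand at the upper right, at 1.02 and 0.93 on the unmodified diet, mRpS18A at the lower left at -0.83, and mRpS5 lies off the line.

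Genes with and without a bacterial counterpart were set side by side. They were divided after the data had been seen by number, those up to mRpL36 and mRpS21 being counted as having a bacterial counterpart. The median tissue difference on the unmodified diet, as deposited, was -0.74 for 27 large-subunit genes with a counterpart and -0.62 for 17 without one, and -0.60 for 13 and -0.61 for 12 small-subunit genes. Those called lower as deposited were 19 of 27, 14 of 17, 11 of 13 and 10 of 12 in the same order. In the midgut diet comparison the corresponding medians were 0.23, 0.29, 0.27 and 0.25. These values were not tested against each other.

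mRpL47 and mRpS11 were each measured by a second probe set. On the unmodified diet both probe sets of each gene were called lower in midgut as deposited, at -0.44 and -0.66 for mRpL47 and at -0.91 and -0.62 for mRpS11. On glucose the chosen probe set of mRpL47 was not called, at -0.27 (adjusted p 0.226), and the other was, at -0.63 (adjusted p 5.51e-04). For diet in midgut the second probe sets gave smaller differences than the chosen ones, 0.11 against 0.32 for mRpL47 and -0.01 against 0.21 for mRpS11, none of which was called. Outside the symbol rule lie bonsai and tko, which also encode small-subunit proteins of this ribosome. As deposited, bonsai was called lower in midgut, at -1.30 (SE 0.13, adjusted p 1.67e-06) on the unmodified diet and -1.16 on glucose, and tko stood at -0.16 and -0.26 and was not called. Neither was called for diet.

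Genes that serve the same ribosome or receive its products gave a frame for these values. On the unmodified diet, as deposited, all 9 measured translation factors of the mitochondrion were called lower in midgut, with a median of -1.21. After median centring 5 were lower and 0 higher, and after quantile normalization 4 were lower and 2 higher, with medians of -0.60 and -0.09. Among them mRF1, a release factor, stood at -1.72 (SE 0.13) and mEFG1, an elongation factor, at -1.97 (SE 0.16). Of 18 aminoacyl-tRNA synthetase and amidotransferase genes 17 were called lower as deposited, with a median of -1.12, against 12 lower and 1 higher after median centring and 4 lower and 3 higher after quantile normalization. GluRS-m stood at -1.77 (SE 0.15) and TrpRS-m at -2.06 (SE 0.18). Genes for upkeep and transcription of the mitochondrial genome had 10 of 11 called lower, with a median of -1.26, against 7 lower and 1 higher after median centring and 6 lower and 4 higher after quantile normalization. There mtSSB, which binds single-stranded mitochondrial DNA, stood at -2.83 (SE 0.23), mtDNA-helicase at -2.35 (SE 0.18) and TFAM, which packages that DNA, at -1.59 (SE 0.12). Import genes had 8 of 12 called lower as deposited, 8 lower and 4 higher after median centring and 7 lower and 0 higher after quantile normalization. The receptor gene Tom70 stood at -2.32 (SE 0.17) and the pore gene Tom40 at -1.64 (SE 0.16). The list includes Tim13, Tim17b1 and Tim17b2, which read 2.03 to 2.90 over the 12 arrays, below the median of all probe sets on every array. Calls for such dim probe sets say little of import.

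The products of mitochondrial translation end up in the respiratory chain and ATP synthase. Their nuclear genes were taken by symbol, those beginning with ND-, Sdh, UQCR-, COX, Cox or ATPsyn, with no filter on signal or on role. Of 76 measured genes 18 were called higher and 11 lower in midgut on the unmodified diet as deposited. The median was 0.13, in a range of -5.24 to 0.63. Median centring gave 67 higher and 4 lower and quantile normalization 28 higher and 9 lower. On glucose 6 were called higher and 19 lower as deposited, with a median of -0.05, while median centring gave 59 higher and 5 lower and quantile normalization 12 higher and 12 lower. On the unmodified diet the median of the respiratory list lay 0.78 above that of the ribosomal family as deposited. It lay as far above it after median centring, where the difference between lists cannot move, and 0.004 below it after quantile normalization. On glucose the corresponding differences were 0.47, 0.47 and -0.065. Of 41 cytosolic ribosomal protein genes 29 were called lower and 1 higher on the unmodified diet as deposited, with a median of -0.28. There median centring gave 4 lower and 28 higher and quantile normalization 24 lower and 1 higher. Over the same arrays all 18 ovary genes were called lower in midgut as deposited, with a median of -5.80, and 9 of 10 muscle genes, with a median of -2.34. The part of tissues present in the whole fly and absent from the midgut was not tested.

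The same lists were then read for diet. In midgut their medians were 0.10 for translation factors, 0.12 for the synthetases, 0.19 for genome upkeep, 0.18 for import, 0.09 for the respiratory list and 0.14 for cytosolic ribosomal proteins, with no gene called in any. In the same order 6 of 9, 14 of 18, 9 of 11, 11 of 12, 53 of 76 and 38 of 41 genes were above 0, beside 66 of 69 mitochondrial ribosomal protein genes. A tilt towards glucose in midgut was thus not particular to this family. In whole flies the translation factors and synthetases had medians of -0.17 and -0.26, against 0.08 for the mitochondrial ribosomal proteins and 0.23 for the respiratory list, in which 6 genes were called higher. These lists were not tested against each other.

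**Figure D5:**
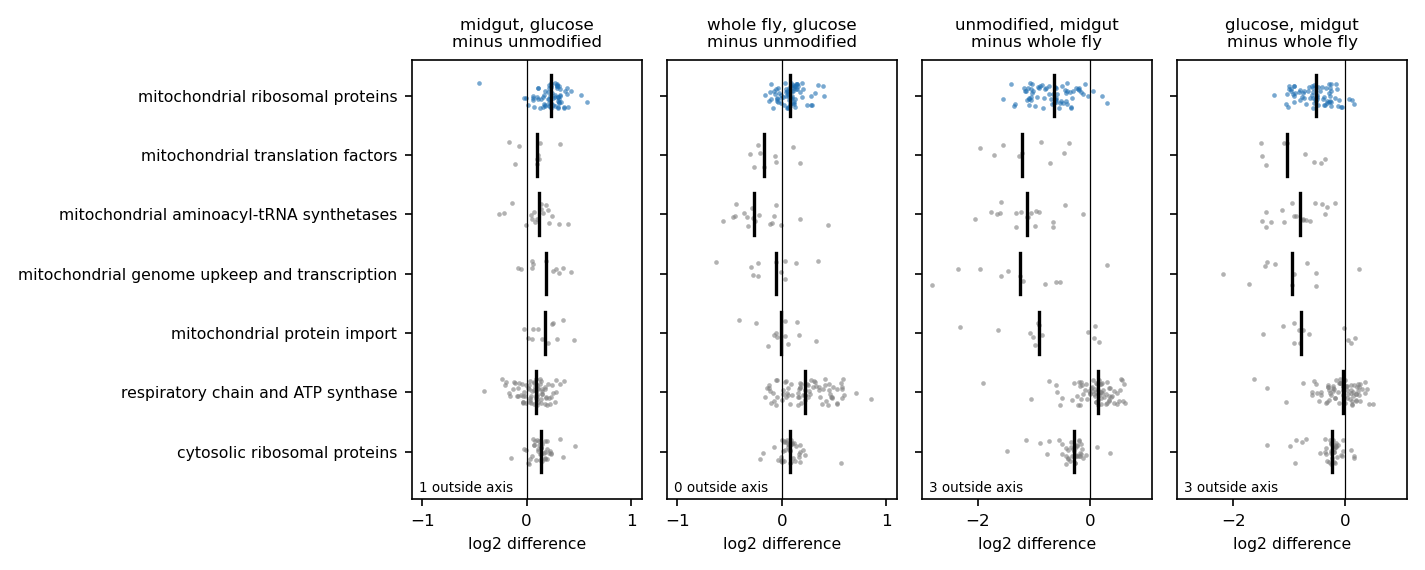
Log2 difference (x axes) of each measured gene in 7 lists (rows) for the diet comparison in midgut and whole fly and the tissue comparison on each diet, on the deposited scale, with a bar at each list median. The number of genes beyond an axis is written in each panel, and in the tissue panels the position of 0 depends on the scaling, where the respiratory list has 18 genes called higher on the unmodified diet as deposited, 67 after median centring and 28 after quantile normalization.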

How the data were processed

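The deposited table holds 1 log2 signal per probe set and array, a scale inferred from their range of 1.44 to 14.1. Per the submitters' processing notes the authors used Affymetrix Expression Console. Its version and algorithm, and how the tissues were scaled, were not given in the sources used here. Of 18952 probe sets, 183 controls were left out of the tests and 18769 were tested. Array annotation paired 13647 with 1 gene, 402 with several and 4720 with none. The number of arrays limits the precision.

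Diet was fitted within each tissue (6 arrays), and the interaction and tissue contrasts over 12 arrays, in R 4.3.3 with lmFit and eBayes of limma 3.58.1, without covariates. Two-sided p-values received the Benjamini-Hochberg adjustment over the 18769 probe sets and were called under 0.05. The fits were tested on simulated data. The genes and lists were chosen with earlier results of these data known. Genes were named by rule: up to 10 called genes with the largest difference in each direction, the 5 with the smallest p where fewer than 5 were called, 3 at each end of the signal range per subunit, and up to 4 per pathway list. Genes named for their place in the family, in the pairs or in lists of called or non-overlapping genes were chosen after their values were seen.

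Replicate numbers come from the sample titles. Between same-numbered samples, the correlation of deviations from group means was 0.39, 0.31 and 0.36 between the midgut diets, so these were taken as pairs. Whole fly samples were not (0.20, 0.31 and -0.01). Alternatives were median centring, quantile normalization, removal of the 40% dimmest probe sets, trend and robust priors, other sets of arrays, the replicate block and leaving out each array. At most 0.0213% of values were identical in a pair of arrays of a group. The gene table was used for names only, with no coordinates.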

Additional observations from a re-analysis of the deposited data

How the results depend on the processing

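The direction of the tissue comparison rested on scaling. On the unmodified diet 54 genes were called, all lower, against 30 with median centring (20 lower, 10 higher) and 26 with quantile normalization (12 lower, 14 higher). On glucose 46 were called, all lower, against 21 (3 lower, 18 higher) and 19 (7 lower, 12 higher). The unmodified large-subunit median was -0.10 with median centring and 0.044 with quantile normalization, and the small-subunit median 0.01 and 0.15. On glucose the large-subunit median was 0.16 under both and the small-subunit median 0.11 and 0.087. Relative to the family median, the replicate block gave 18 genes on the unmodified diet against 30, and 10 on glucose against 21, where a fit of those 6 arrays alone gave 12. Leaving out 1 array gave 15 to 29 and 10 to 21 of these, 0 to 1 for the midgut diet (1 lower gene without midgut glucose replicate 3), 44 to 53 and 36 to 49 for the tissue comparisons on the deposited scale, and 0 in the diet comparisons there. The small-subunit median of the difference of diet effects was 0.027 to 0.294 without 1 array. The large-subunit diet median was 0.13 to 0.41 in midgut and -0.02 to 0.16 in whole flies. As deposited, the block moved no count of called genes by over 1.5 times and gave 51 and 42 in the tissue comparisons, where the numbers do not pair the samples. Genes named for the size of their tissue difference lost the call in 15 cases, under median centring or quantile normalization, and of the other genes called lower 5 on each diet turned to higher under at least 1 scaling. Median centring was not run on values relative to the family, which it cannot change. The cause of these shifts was not tested.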
